A study of Mus musculus with 10 samples.

Results

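Chondroitin sulfate proteoglycans, the link proteins and tenascins that bind them, and the genes of perineuronal nets were examined in whole mouse hippocampus. The set holds 10 genes of the 18193 with a probe set of their own on the array: the lecticans Acan, Bcan, Ncan and Vcan, the link proteins Hapln1 and Hapln4, the tenascins Tnr and Tnc, and the transmembrane proteoglycans Ptprz1 and Cspg5. A probe set is a group of short oligonucleotides whose signals are summarised to 1 value, and every probe set whose only gene symbol was one of these was taken, 26 in all. Vcan had 8, Hapln1 4, Ncan and Ptprz1 3 each, Bcan and Tnc 2 each, and the other 4 genes 1 each.

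The arrays came from 10 adult female SJL/J mice, obtained at 8 to 10 weeks of age, and each array is 1 mouse. In the TPlp+AxL group, 5 mice were given T cells specific for the myelin proteolipid protein by adoptive transfer and were then lesioned. The AxL group held 5 mice with the axonal lesion alone. Both groups were therefore lesioned and were killed 2 days after the lesion, and no unlesioned mice and no mice given T cells of another specificity were analysed here. The comparison asks how the hippocampal transcripts of lesioned mice differ when myelin-specific T cells are present, and a response to the lesion itself cannot be read from it. In whole tissue, fewer cells of a type and less RNA per cell cannot be told apart.

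Lecticans are large proteoglycans that bind hyaluronan through one end and tenascins through the other, while link proteins hold the lectican and the hyaluronan together. In perineuronal nets this lattice encloses mainly parvalbumin neurons, and it is known for limiting plasticity in adult brain. After injury, astrocytes and oligodendrocyte precursors make more of several of these proteoglycans, and their chondroitin sulfate chains hold back growing axons.

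None of the 26 probe sets passed the threshold of 0.05 on the limma p adjusted over all 45037 probe sets, neither higher (0 of 26) nor lower (0 of 26) in TPlp+AxL. Over all probe sets, 0.646% were called higher and 0.189% lower (0.835% in either direction). At an unadjusted limma p under 0.05, 1 of the 26 was higher and 5 were lower, against 6.54% and 7.79% of all probe sets (14.3% in either direction). The 1 was a probe set of Vcan, and the 5 belonged to Bcan, Ncan (2 probe sets), Hapln4 and Tnr. Changes, given throughout as the mean log2 value of TPlp+AxL minus that of AxL, ran from -0.37 to 0.19 over the 26 probe sets. The widest limits of their 95% intervals were -0.72 and 0.33.

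**Figure D1:**
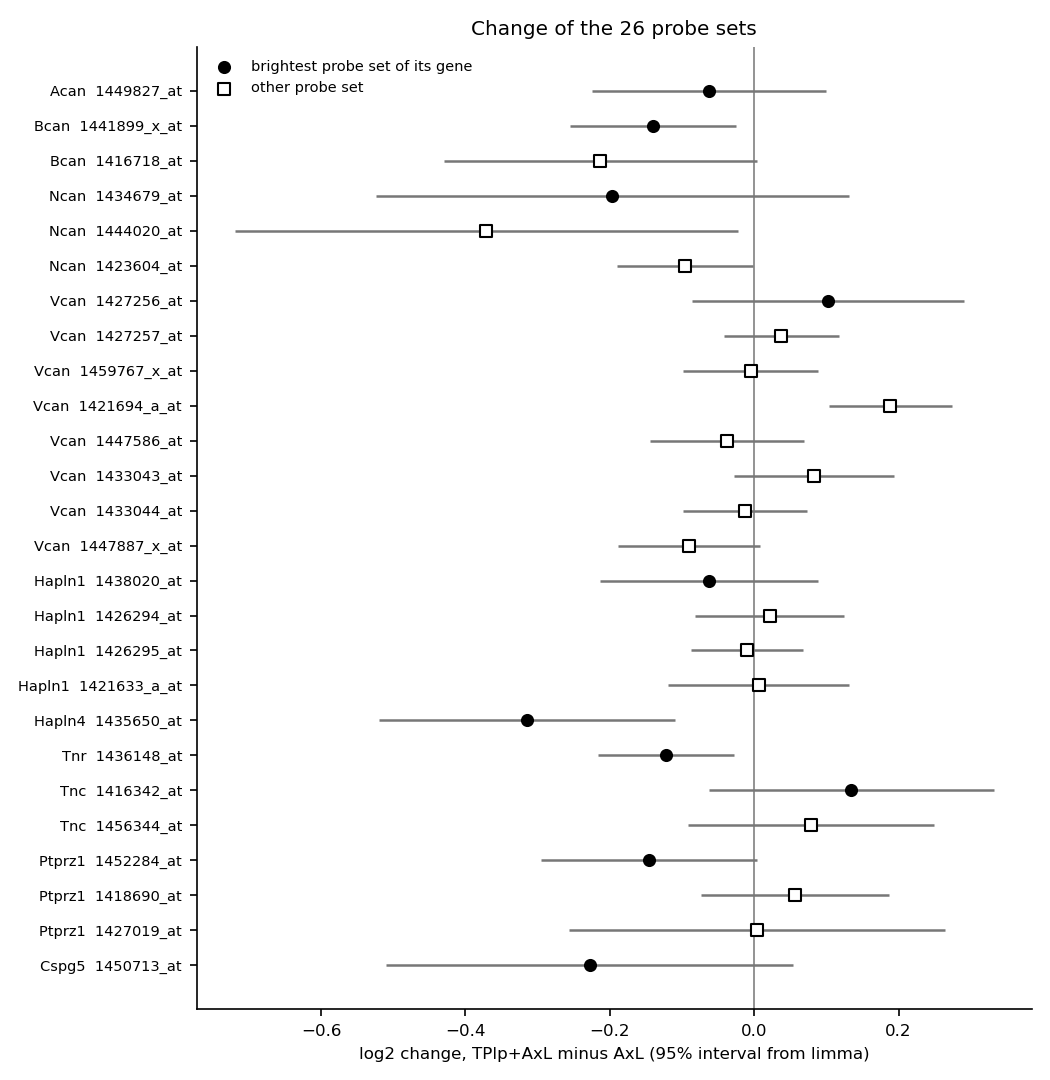
Log2 change (TPlp+AxL minus AxL, horizontal axis) of each of the 26 probe sets with its 95% interval from limma, grouped by gene. Filled circles mark the brightest probe set of a gene and open squares the others. The changes lie between -0.37 and 0.19, with Vcan 1421694_a_at farthest to the right and Ncan 1444020_at farthest to the left.

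The promoters of 3 of the genes are shown. Vcan and Ncan were chosen because they had the 2 member probe sets whose groups did not overlap. Such probe sets made up 7.69% of the member probe sets and 3.59% of all probe sets. Neither was the brightest of its gene, and in the brightest of each gene the groups overlapped. In the Ncan probe set the highest TPlp+AxL value was 7.6867 and the lowest AxL value 7.6875. Tnc was chosen as the member with positive changes in all of its probe sets. Each window holds 300 bases around the gene's start in RefSeq (GRCm38.p6, a C57BL/6J genome, while the mice were SJL/J). All are on the minus strand, Vcan at chr13:89742463-89742762, Ncan at chr8:70120795-70121094 and Tnc at chr4:64046966-64047265. Capitals mark the motif CCAAT or its reverse complement (Vcan) and TATAAA or its reverse complement (Ncan and Tnc).
Vcan: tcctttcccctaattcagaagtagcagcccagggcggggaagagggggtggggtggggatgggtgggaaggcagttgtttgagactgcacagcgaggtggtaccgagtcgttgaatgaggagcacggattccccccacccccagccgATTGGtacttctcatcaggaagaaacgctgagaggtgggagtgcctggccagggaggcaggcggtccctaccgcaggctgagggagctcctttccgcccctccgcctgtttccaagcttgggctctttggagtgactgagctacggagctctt
Ncan: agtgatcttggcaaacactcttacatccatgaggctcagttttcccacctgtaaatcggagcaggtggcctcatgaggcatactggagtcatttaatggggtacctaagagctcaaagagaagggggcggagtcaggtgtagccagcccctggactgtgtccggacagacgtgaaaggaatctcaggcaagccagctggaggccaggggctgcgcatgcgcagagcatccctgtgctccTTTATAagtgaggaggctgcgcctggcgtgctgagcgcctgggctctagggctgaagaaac
Tnc: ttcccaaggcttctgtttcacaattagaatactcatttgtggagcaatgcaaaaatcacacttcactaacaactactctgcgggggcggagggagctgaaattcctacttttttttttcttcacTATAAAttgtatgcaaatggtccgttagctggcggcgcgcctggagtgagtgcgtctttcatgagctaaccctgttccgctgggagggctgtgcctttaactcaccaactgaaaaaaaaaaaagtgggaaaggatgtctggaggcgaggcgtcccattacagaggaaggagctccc
CCAAT stood in 37.4% of all 32851 windows on either strand and TATAAA in 13.6%. The windows of Vcan (61.0% G and C) and Ncan (56.7%) were richer in G and C than the median window (52.7%), and the Tnc window shown was poorer (47.3%), while the other Tnc window, which overlaps it, had 54.0%. TTCNNNGAA, the letters of the gamma-activated site that STAT proteins bind, stood in 8.3% of all windows, and TGANTCA, the letters of the AP-1 site, in 7.81%. Neither was found on either strand in the 9 windows that the RefSeq table holds for 8 of the members, Tnc having 2.

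Among the lecticans, Ncan had negative changes in all 3 of its probe sets. Neurocan, its product, is a lectican of the nervous system that astrocytes and neurons secrete. The brightest probe set of Ncan (1434679_at) had log2 values of 11.05, 10.77, 10.79, 10.78 and 11.08 in TPlp+AxL 1 to 5, against 11.12, 10.64, 10.90, 11.61 and 11.19 in AxL 1 to 5. The groups overlapped, and both the highest and the lowest array were AxL arrays. Its change was -0.20 (SE 0.15, limma adjusted p = 0.557). Without AxL 4, the highest array, the change was -0.07 (adjusted p = 0.827).

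The second Ncan probe set (1444020_at) had the most negative change of the 26, at -0.37 (SE 0.16, limma adjusted p = 0.323). It read 9.79, 10.25, 10.31, 10.12 and 10.36 in TPlp+AxL, against 10.20, 10.85, 10.94, 10.19 and 10.51 in AxL. Here AxL 2 and AxL 3 were the high arrays and AxL 4 the lowest of its group, an order unlike that of the brightest probe set. The dimmest (1423604_at) read 7.64, 7.63, 7.68, 7.64 and 7.69 in TPlp+AxL, against 7.69, 7.69, 7.70, 7.89 and 7.78 in AxL. All 5 TPlp+AxL arrays were below all 5 AxL arrays, by a margin smaller than the second decimal shows. Its change was -0.10 (SE 0.04, limma adjusted p = 0.342). Of all probe sets, 1.64% were wholly below and 1.94% wholly above (3.59% together), against 1 and 1 of the 26.

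Vcan, the gene of versican, was the only member with a probe set near the threshold. Versican is made by oligodendrocyte precursors in brain and by fibroblasts and vessels elsewhere, and it is spliced into isoforms that differ in their chondroitin sulfate region. The probe set 1421694_a_at read 7.54, 7.47, 7.53, 7.52 and 7.57 in TPlp+AxL, against 7.34, 7.23, 7.37, 7.39 and 7.35 in AxL. Every TPlp+AxL array was above every AxL array. Means were 7.53 ± 0.04 in TPlp+AxL and 7.34 ± 0.06 in AxL (SD, n = 5 each), a change of 0.19 (SE 0.04, 95% interval 0.10 to 0.27). This 1.14-fold difference did not pass in limma (adjusted p = 0.0514). It passed with a trended and robust variance (adjusted p = 0.0312), with array weights (0.0218) and without AxL 4 (0.0488). It did not pass in any of the 3 scalings, where the change was 0.16. There the adjusted p was 0.0768 with array medians subtracted, 0.141 after repeated quantile and 0.159 after cyclic loess normalization. Over all alternatives its adjusted p ran up to 0.324.

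The other 7 Vcan probe sets did not share this pattern. The brightest (1427256_at) read 9.41, 9.31, 9.52, 9.43 and 9.32 in TPlp+AxL, against 9.27, 9.35, 9.61, 9.13 and 9.12 in AxL. All TPlp+AxL values lay inside the range of the AxL values, and the change was 0.10 (SE 0.09, limma adjusted p = 0.596). The remaining 6 had changes from -0.09 to 0.08, 2 of them positive, with adjusted p from 0.382 to 0.967. Of the 8 Vcan probe sets, 3 had a mean under 7.18, the 25th percentile of all probe sets, while 1421694_a_at had a mean of 7.43 over the 10 arrays. Which transcripts each probe set matches was not analysed here.

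Bcan encodes brevican, the most abundant lectican of adult brain, made by astrocytes and other glia and by neurons. Its brighter probe set (1441899_x_at) read 11.92, 11.80, 11.71, 11.70 and 11.88 in TPlp+AxL, against 11.99, 11.87, 11.93, 12.03 and 11.89 in AxL. The 3 lowest values were all TPlp+AxL, and the change was -0.14 (SE 0.05, limma adjusted p = 0.268). The ending of this probe set's name marks oligonucleotides that may also match other sequences. A second probe set (1416718_at) averaged 9.02 ± 0.16 in TPlp+AxL and 9.23 ± 0.20 in AxL (SD, n = 5 each), with a change of -0.21 (SE 0.10, limma adjusted p = 0.356). There, too, the 3 lowest arrays were TPlp+AxL.

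Acan encodes aggrecan, the lectican on which perineuronal nets depend most. Its single probe set read 7.52, 7.60, 7.70, 7.67 and 7.66 in TPlp+AxL, against 7.64, 7.64, 7.58, 7.99 and 7.61 in AxL. Apart from AxL 4, which stood far above the rest, the groups lay over each other. The change of -0.06 (SE 0.07, limma adjusted p = 0.715) was 0.01 without AxL 4.

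Of the link proteins, Hapln4 had the smallest p of the members with a negative change. Hapln4, also called Bral2, binds brevican and is a component of perineuronal nets. It read 9.82, 9.60, 9.66, 9.71 and 9.91 in TPlp+AxL, against 10.06, 9.79, 9.95, 10.34 and 10.13 in AxL. The 3 lowest values were TPlp+AxL and the 4 highest were AxL, with the groups overlapping only through AxL 2. Means were 9.74 ± 0.13 in TPlp+AxL and 10.06 ± 0.20 in AxL (SD, n = 5 each). The change of -0.31 (SE 0.09, 95% interval -0.52 to -0.11) did not pass in limma (adjusted p = 0.172). With 1 array left out it ran from -0.38 to -0.24, with adjusted p from 0.066 to 0.356.

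Hapln1, the link protein also known from cartilage, showed no difference beyond the spread between mice. Its brightest probe set (1438020_at) read 8.167, 7.811, 7.909, 7.884 and 7.964 in TPlp+AxL, against 7.997, 7.969, 8.003, 8.179 and 7.899 in AxL. TPlp+AxL 1 and AxL 4 were the high arrays of their groups, and the change was -0.06 (SE 0.07, 95% interval -0.21 to 0.09, limma adjusted p = 0.694). The other 3 probe sets had changes from -0.01 to 0.02, and the sign of the positive pair turned when array medians were subtracted or the values were normalized again.

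In the genome of the mouse each lectican gene has a link protein gene beside it, with no annotated gene lying wholly between them in GRCm38.p6: Acan with Hapln3, Bcan with Hapln2, Ncan with Hapln4 and Vcan with Hapln1. Hapln2, a link protein of the nodes of Ranvier, averaged 8.21 ± 0.06 in TPlp+AxL and 8.23 ± 0.19 in AxL (SD, n = 5 each; limma adjusted p = 0.920). Hapln3 averaged 8.15 ± 0.04 in TPlp+AxL and 8.16 ± 0.07 in AxL (SD, n = 5 each; adjusted p = 0.899). Within the pairs, by brightest probe sets, the changes were -0.06 for Acan and -0.01 for Hapln3, -0.14 for Bcan and -0.02 for Hapln2, -0.20 for Ncan and -0.31 for Hapln4, and 0.10 for Vcan and -0.06 for Hapln1. None of these 8 genes passed in limma.

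The tenascins had changes of opposite sign. Tenascin-R, the product of Tnr, is made by oligodendrocytes and some neurons and joins lecticans into the lattice of the net. Tnr read 10.59, 10.47, 10.47, 10.59 and 10.52 in TPlp+AxL, against 10.75, 10.69, 10.60, 10.59 and 10.64 in AxL. The 4 highest arrays were AxL, the groups meeting at AxL 4. Its change was -0.12 (SE 0.04, 95% interval -0.22 to -0.03, limma adjusted p = 0.238).

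Tenascin-C, the product of Tnc, is a glycoprotein of developing and injured tissue that reactive astrocytes make. The brighter Tnc probe set (1416342_at) read 8.74, 8.51, 8.57, 8.84 and 8.70 in TPlp+AxL, against 8.40, 8.48, 8.53, 8.86 and 8.42 in AxL. AxL 4 was the highest of the 10 arrays, while 3 of the other 4 AxL arrays were below all TPlp+AxL arrays and AxL 3 exceeded TPlp+AxL 2. The change was 0.13 (SE 0.09, limma adjusted p = 0.505), and 0.22 without AxL 4 (adjusted p = 0.181). The dimmer probe set (1456344_at) had the same outlying array, at 6.87 in AxL 4, against 6.48 to 6.52 in the other AxL arrays and 6.56 to 6.77 in TPlp+AxL. Its change was 0.08 (SE 0.08, limma adjusted p = 0.656), and 0.15 without AxL 4 (adjusted p = 0.242), where all 5 TPlp+AxL arrays were above the 4 that remained. That separation was seen after the array had been left out for its value and carries no test.

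Ptprz1 encodes a receptor tyrosine phosphatase of astrocytes and precursor cells whose secreted form is the proteoglycan phosphacan. The brightest probe set (1452284_at) read 11.56, 11.40, 11.48, 11.32 and 11.29 in TPlp+AxL, against 11.56, 11.42, 11.58, 11.75 and 11.48 in AxL. The change was -0.15 (SE 0.07, limma adjusted p = 0.360), with AxL 4 highest. The other 2 probe sets did not go the same way: 1418690_at averaged 10.999 ± 0.11 in TPlp+AxL and 10.94 ± 0.09 in AxL (change 0.06, adjusted p = 0.674), and 1427019_at averaged 10.03 ± 0.10 in TPlp+AxL and 10.03 ± 0.29 in AxL (change 0.0040, adjusted p = 0.99; SD, n = 5 each). The sign of 1427019_at was negative when array medians were subtracted (-0.02).

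Cspg5 encodes neuroglycan C, a transmembrane proteoglycan of the nervous system. It read 10.39, 10.15, 10.34, 10.23 and 10.60 in TPlp+AxL, against 10.55, 10.39, 10.44, 11.07 and 10.40 in AxL. AxL 4 again stood apart at the top. The change was -0.23 (SE 0.13, limma adjusted p = 0.434), and -0.10 without AxL 4 (adjusted p = 0.598).

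**Figure D2:**
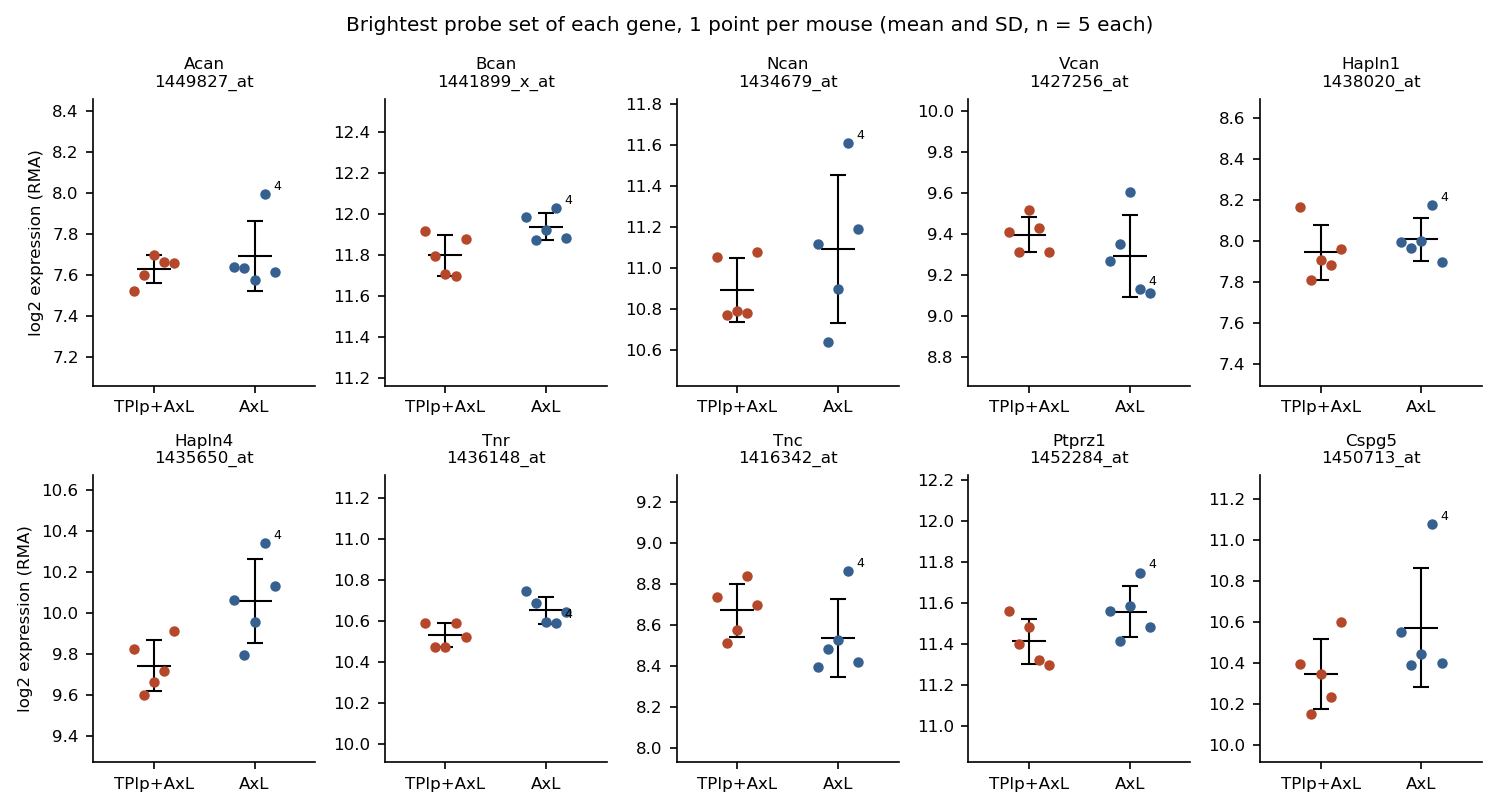
Log2 expression of the brightest probe set of each of the 10 genes, 1 point per mouse, with the mean and SD of 5 TPlp+AxL arrays (left) and 5 AxL arrays (right). Every panel spans the same length of the log2 axis around its own centre, and the digit 4 marks AxL 4. The groups overlap in all 10 panels, and AxL 4 is the highest point in Acan, Bcan, Ncan, Hapln1, Hapln4, Tnc, Ptprz1 and Cspg5.

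One array was common to many of these values. AxL 4 was the highest of the 10 arrays in 12 of the 26 probe sets (46.2%), and in 7 of the 11 with a mean of 9 or more (63.6%). It was also the highest in 23.1% of all probe sets and in 45.5% of the 12049 with a mean of 9 or more. The same array was the lowest in 19.7% of all probe sets, the largest share of any array, and in 1 of the 26. With AxL 4 left out, 1 of the 26 was called higher (Vcan 1421694_a_at) and 0 were called lower.

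**Figure D3:**
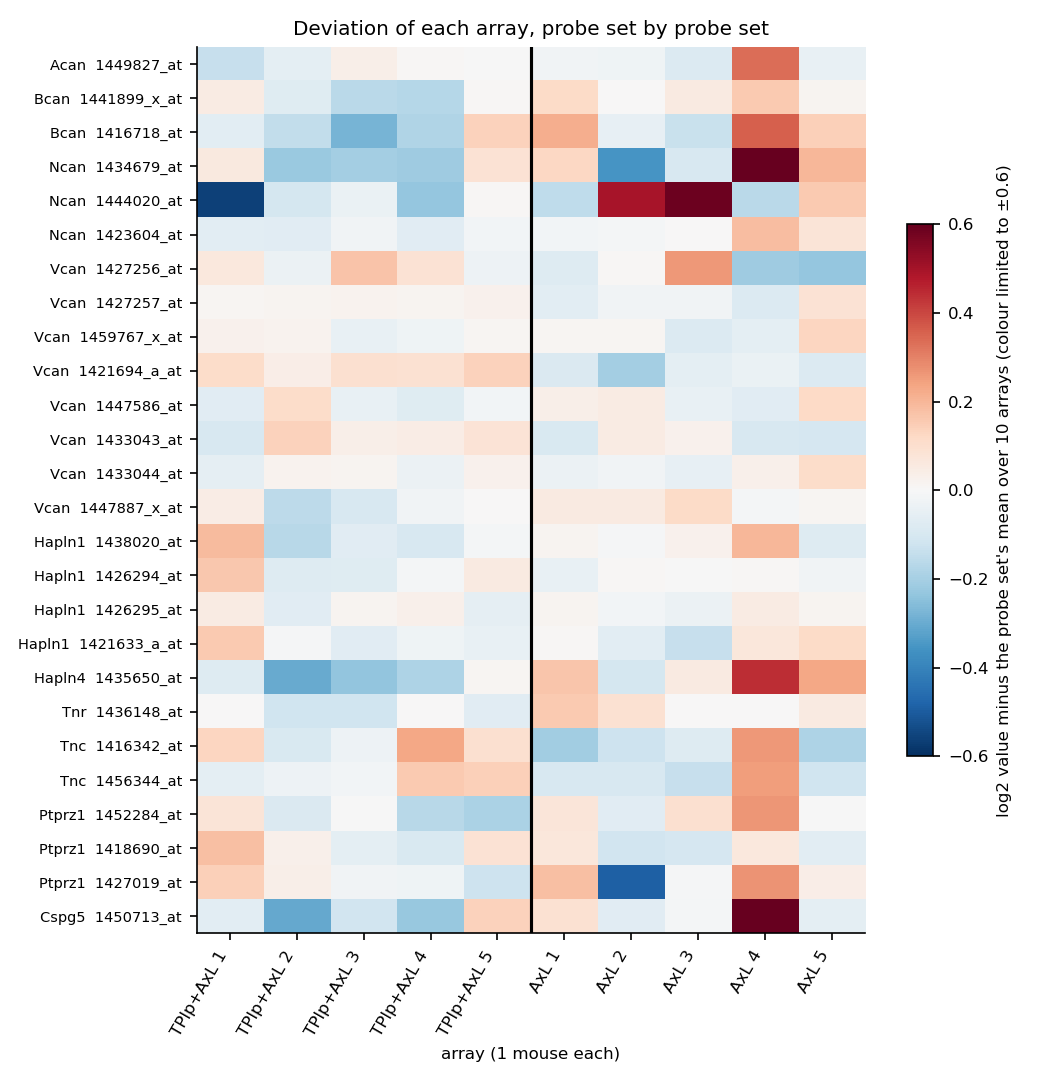
Deviation of each array from the mean of its probe set over the 10 arrays, in log2 units, with the 26 probe sets down the page and the TPlp+AxL arrays left of the AxL arrays. Red is above the mean and blue below it, with the colour limited to 0.6 either way. The column of AxL 4 is red in most rows, while Ncan 1444020_at has AxL 2 and AxL 3 as its high arrays.

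Signal level moved with the direction of change. Of the 11 probe sets with a mean of 9 or more, 8 had negative changes (72.7%) and the median was -0.15, whereas over all probe sets at that level 80.4% were negative and the median was -0.09. Of the 15 dimmer ones, 8 were negative, with a median of -0.0050. When quantile normalization was repeated, the median of the 11 was -0.04 and that of all probe sets at that level -0.01. Hapln4 (-0.25), Ncan 1444020_at (-0.29), Bcan 1416718_at (-0.18) and Cspg5 (-0.15) kept the larger part of their difference in that setting. Ncan 1434679_at, the brightest of Ncan, was at -0.10 there, against -0.20 as deposited, and Tnr (-0.04), Bcan 1441899_x_at (-0.03) and Ptprz1 1452284_at (-0.03) kept less. Neither Tnc nor Vcan 1421694_a_at changed sign under any of the 3 scalings tried. The part of signal level in the members' values was not tested.

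**Figure D4:**
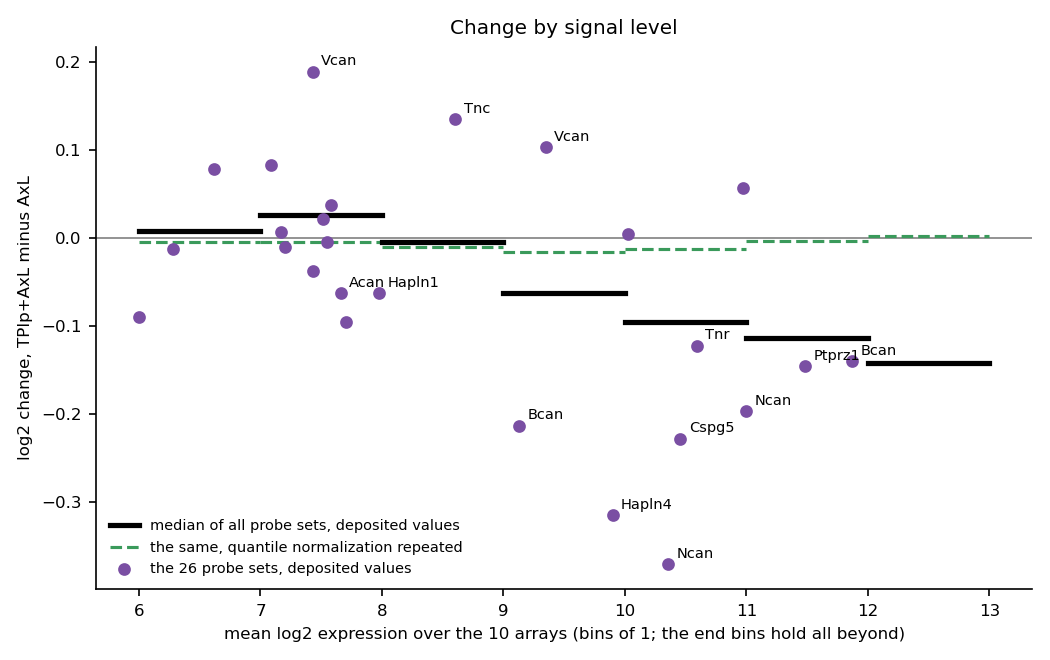
Log2 change (TPlp+AxL minus AxL) against mean log2 expression over the 10 arrays for the 26 probe sets (points), with the median change of all probe sets in each bin of mean level before (solid) and after (dashed) quantile normalization was repeated. The solid line sinks from 0.03 at means of 7 to 8 to -0.14 over 12, and the brighter negative points lie at or under it.

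The genes that build, cut and bind this matrix were counted with 1 probe set per gene, the brightest, where 0.978% of all genes were called higher and 0.280% lower (1.26% in either direction). Of 20 measured genes of chondroitin sulfate synthesis and sulfation, 0 passed in limma in either direction and 4 had an unadjusted p under 0.05, a mark that 17.9% of all genes met. The median change was -0.05, against -0.03 for all genes. Chpf, a chondroitin polymerizing factor, averaged 8.84 ± 0.06 in TPlp+AxL and 9.09 ± 0.15 in AxL, with all TPlp+AxL arrays below (change -0.25, SE 0.07, adjusted p = 0.123; SD, n = 5 each). It passed when quantile normalization was repeated (adjusted p = 0.0436) and with array weights (0.0421). Chst15, a sulfotransferase that makes the disulfated E unit, had a change of -0.21 (SE 0.08, adjusted p = 0.260), and 0.02 in a second probe set.

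In the list of hyaluronan synthesis, turnover and binding, 0 of 13 genes passed in limma and 3 had an unadjusted p under 0.05, with a median of -0.0054. Cd44, the main cell surface receptor for hyaluronan, read 10.66, 10.32, 10.26, 10.38 and 10.52 in TPlp+AxL, against 9.74, 9.69, 9.98, 10.41 and 10.17 in AxL. Only AxL 4 reached into the TPlp+AxL range. The change was 0.43 (SE 0.13, adjusted p = 0.181), and it passed after repeated quantile (0.50, adjusted p = 0.0389) or cyclic loess normalization (0.51, adjusted p = 0.0410). Its dimmer probe sets had changes of 0.60, 0.15 and -0.10 and did not pass. Has2, a hyaluronan synthase, had a change of 0.15 (SE 0.04, adjusted p = 0.162).

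Among 19 matrix proteases and inhibitors, 1 rose, 0 fell and 6 had an unadjusted limma p under 0.05, with a median of 0.03. The gene was Mmp8, the collagenase of neutrophils, at 7.44, 7.53, 7.60, 7.53 and 7.50 in TPlp+AxL and 7.21, 7.37, 7.35, 7.27 and 7.19 in AxL. All TPlp+AxL arrays were above all AxL arrays (change 0.24, SE 0.05, limma adjusted p = 0.0370). The call was lost in each of the 3 scalings, with adjusted p from 0.0557 to 0.0667, with the replicate block (0.0553), with the choroid plexus covariate (0.0798), without TPlp+AxL 1, AxL 3 and AxL 5 together (0.227), and in 7 of the 10 fits with 1 array left out, where it reached 0.115. Of 22 receptors, ligands and binding partners, 0 passed and 6 had an unadjusted limma p under 0.05, with a median of -0.11. That median was -0.03 after repeated quantile and -0.04 after cyclic loess normalization. Over all probe sets with a mean of 10 to 11 the median of the deposited values was a change of -0.10. Ptprs, a phosphatase that binds chondroitin sulfate and curbs axon growth, had a change of -0.17 (SE 0.05, adjusted p = 0.204), and of -0.03 after repeated quantile normalization. Its dimmer probe sets had changes of -0.0050, 0.03 and -0.08 and did not pass. Rtn4r, the Nogo receptor, had a change of -0.16 (SE 0.04, adjusted p = 0.0961), with all TPlp+AxL arrays below. It passed with array medians subtracted (-0.19, adjusted p = 0.0404) and with array weights (adjusted p = 0.0492). The change of Rtn4r was smaller after repeated quantile (-0.12) and cyclic loess normalization (-0.11).

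Of 16 other matrix proteoglycans and glycoproteins, 1 rose, 0 fell and 6 had an unadjusted limma p under 0.05, with a median of -0.05. Srgn, the gene of serglycin, the granule proteoglycan of leukocytes, averaged 12.11 ± 0.18 in TPlp+AxL and 11.33 ± 0.25 in AxL (change 0.78, SE 0.12, limma adjusted p = 0.0106; SD, n = 5 each). Leukocyte markers moved with it: 7 of 9 rose, and the mean of the list ran from 9.66 to 10.21 in TPlp+AxL arrays and from 8.83 to 9.09 in AxL arrays. Their part in the Srgn and Mmp8 values was not tested.

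**Figure D5:**
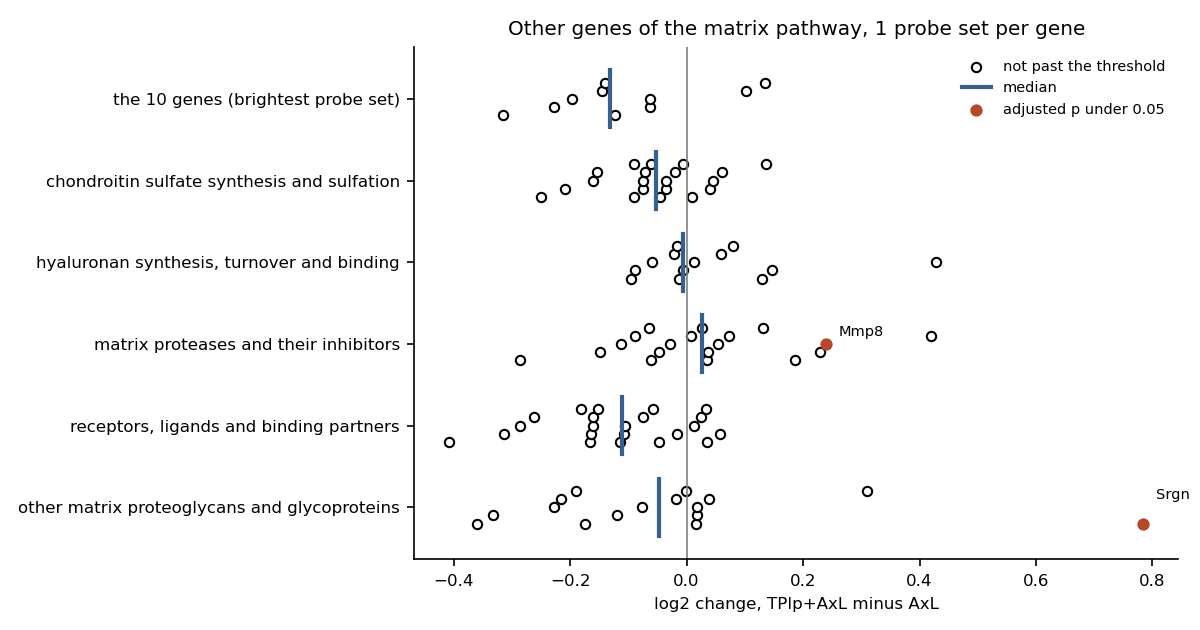
Log2 change (TPlp+AxL minus AxL) in the brightest probe set per gene, for the 10 genes and for 5 lists of other matrix genes. Open circles did not pass the threshold, filled circles did, and bars are medians. The median is -0.13 for the 10 genes and between -0.11 and 0.03 for the lists, and only Mmp8 and Srgn are filled. Over all genes, not drawn, the median was -0.03. After repeated quantile normalization, also not drawn, it was -0.06 for the 10 genes and -0.02 for all genes.

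Markers of the cells that make the matrix had mostly negative changes, where 62.7% of all genes were negative and the median of all genes was -0.03. Over all probe sets with a mean of 9 or more, 80.4% were negative and the median was -0.09. Lists of other cells were often negative too, such as meninges and fibroblasts (9 of 9) and microglia (5 of 6). All 9 leukocyte markers were positive, with changes from 3.5e-04 to 2.18. All 7 markers of oligodendrocyte precursors were negative and 0 passed in limma (3 with an unadjusted p under 0.05), with a median of -0.14. After repeated quantile normalization these 7 were still negative, with a median of -0.08. Their list means were 9.31 to 9.41 in TPlp+AxL and 9.45 to 9.59 in AxL. These did not overlap, as was also so in the excitatory neuron and leukocyte lists, and how often lists of all genes do so was not tested. All 7 measured markers of myelinating oligodendrocytes were negative, with a median of -0.21, and 0 passed in limma (5 with an unadjusted p under 0.05). They were also negative after repeated quantile normalization, with a median of -0.12. The means of that list were 11.51 to 11.75 in TPlp+AxL and 11.64 to 12.02 in AxL.

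Of 6 measured excitatory neuron markers, all were negative with a median of -0.21, 5 had an unadjusted limma p under 0.05 and 1 fell. After repeated quantile or cyclic loess normalization 4 of the 6 were negative, with medians of -0.05 and -0.07. Their list means were 12.473 to 12.727 in TPlp+AxL and 12.733 to 12.852 in AxL, without overlap. The marker that fell was Nrgn, the gene of the synaptic protein neurogranin, with all TPlp+AxL arrays below all AxL arrays (change -0.27, SE 0.04, limma adjusted p = 0.0078). Its call was lost when quantile (-0.13, adjusted p = 0.308) or cyclic loess normalization (-0.15, adjusted p = 0.241) was applied, and with the 3 arrays of high Ttr, TPlp+AxL 1, AxL 3 and AxL 5, left out together (-0.23, adjusted p = 0.190). All 12 markers of inhibitory neurons were negative, with a median of -0.12, and 0 passed and 0 had an unadjusted limma p under 0.05. After repeated quantile or cyclic loess normalization 9 of the 12 were negative, with a median of -0.04 in each setting. Their list means were 10.16 to 10.25 in TPlp+AxL and 10.22 to 10.45 in AxL. Pvalb, the calcium-binding protein of the neurons that carry most nets, had a change of -0.19 (SE 0.10, adjusted p = 0.389), and of -0.08 after repeated quantile normalization.

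Of 10 astrocyte markers, 8 were negative with a median of -0.08, and 0 passed in limma (3 with an unadjusted p under 0.05). After repeated quantile normalization 5 of the 10 were negative, with a median of 0.0077. The mean of the list ran from 11.40 to 11.66 in TPlp+AxL and from 11.44 to 11.77 in AxL. Gfap, the intermediate filament of astrocytes, had changes of -0.02, -0.11 and -0.16 in its 3 probe sets, the brightest first, and Aqp4, their water channel, had changes of 0.0072, 0.06 and 0.03. For the brightest probe set of each the change was 0.11 when quantile normalization was repeated. The part of these cell types in the members' values was not tested.

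Markers of neocortex and subiculum had list means of 9.40 to 9.62 in TPlp+AxL and 9.40 to 9.78 in AxL. Those of thalamus and habenula were 8.80 to 8.96 and 8.87 to 9.13. For 9 hippocampal subfield markers the mean was 9.94 to 10.08 in TPlp+AxL and 9.97 to 10.25 in AxL. Without another tissue for comparison, these levels cannot check the label hippocampus. Of the 9 subfield markers, 6 were negative and 1 fell. It was Nnat, a proteolipid gene of hippocampal neurons, with all TPlp+AxL arrays below all AxL arrays (change -0.49, SE 0.10, limma adjusted p = 0.0450). The Nnat call was lost after repeated quantile (-0.38, adjusted p = 0.139) or cyclic loess normalization (-0.38, adjusted p = 0.136), without the 3 arrays of high Ttr (-0.58, adjusted p = 0.237), and when any one of TPlp+AxL 1, 3 or 4 or AxL 1, 2, 4 or 5 was left out (adjusted p from 0.0528 to 0.125). The table holds no detection calls, so no marker can be called absent. Choroid plexus transcripts differed between single arrays: Ttr read 14.68 in TPlp+AxL 1, 14.71 in AxL 3 and 14.73 in AxL 5, against 12.84 to 13.16 in the other TPlp+AxL arrays and 12.88 to 12.97 in the other AxL arrays. With these 3 arrays left out together, 0 of the 26 probe sets passed in limma. In that fit only 1 of all 45037 probe sets passed, against 376 with all arrays. A count of 0 or a lost call there therefore tells little about single probe sets. With the mean of the choroid plexus list as a covariate, 0 of the 26 and 288 of all probe sets passed.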

How the data were processed

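Total RNA of whole hippocampi was hybridised to Affymetrix arrays as biotinylated cRNA, per the labels' protocols. The deposited values are log2 expression made by the authors with RMA, per the submitters' processing notes. Its version is not given in the sources, and the array files behind it were not used here. Of 45101 probe sets, 64 controls were left out and 45037 were tested unfiltered. Symbols came from the platform annotation (34945 probe sets with 1 symbol, 932 with several genes, 9160 with none), updated through Entrez identifiers for 34741. Array medians ran from 7.88 to 7.92, and 0 pairs of arrays were identical.

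The groups were compared with limma 3.58.1 in R 4.3.3 (lmFit, eBayes). P-values were adjusted by Benjamini and Hochberg's method over the 45037 probe sets, and those under 0.05 were called. The test was checked on simulated data whose noise was independent between probe sets and arrays, so differences shared across an array were not covered. The number of arrays limits the precision, and 95% intervals are not adjusted. Every member was described; from each list of other matrix genes the text names genes past the threshold, or the 2 with the smallest p. Markers are named where past the threshold in the excitatory neuron and subfield lists, and Gfap, Aqp4, Pvalb and Ttr by choice. The members and lists were chosen with earlier results of these data known, so no test over a list was made. Alternatives covered the variance model, a filter on dim probe sets, 3 scalings, array weights, the replicate number, the choice of probe sets, choroid plexus content and each array left out.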

Additional observations from a re-analysis of the deposited data

Results flagged for a closer look

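There were 5 values that stood far from the other 4 arrays of their group by Dixon's criterion, out of 72 groups of 5 values examined, and chance alone gives such a value in about 1 group in 20. In 4 of them the array was AxL 4. It read 7.99 for Acan, where the next AxL array read 7.64, 8.86 for Tnc 1416342_at (next 8.53), 6.87 for Tnc 1456344_at (next 6.52) and 11.07 for Cspg5 (next 10.55). The other one was TPlp+AxL 1, at 7.33 for Hapln1 1421633_a_at, with 7.17 next. Without AxL 4 the change was 0.01 for Acan, 0.22 and 0.15 for the Tnc probe sets and -0.10 for Cspg5, and none of the 4 passed in limma. Without TPlp+AxL 1 the change of Hapln1 1421633_a_at was -0.03.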

How the results depend on the processing

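The count of member probe sets called higher was 1 (Vcan 1421694_a_at) with a trended and robust variance, with array weights and without AxL 4, and 0 in the other settings, so it ran from 0 to 1 with 1 array left out. The count called lower was 0 in all settings run. Over all probe sets the 376 calls became 753 with array weights, 241 with the replicate block and 1 when the 3 arrays with high Ttr (TPlp+AxL 1, AxL 3 and AxL 5) were left out together. With single arrays left out the lowest count was 185, without TPlp+AxL 4, and the highest 460, without AxL 2. It was 240 without TPlp+AxL 3, 243 without TPlp+AxL 5 and 220 without AxL 5. The replicate numbers did not pair the arrays: deviations from the group means correlated from -0.22 to 0.36 between same-numbered arrays, over 0.1 in 2 of 5, and 1 of 5 TPlp+AxL arrays matched its own number best. With the replicate block Vcan 1421694_a_at had an adjusted p of 0.104. Signs turned only in probe sets that never passed. Under subtracted medians, quantile and cyclic loess normalization, Hapln1 1426294_at was -0.0067, -0.012 and -0.0089 and Hapln1 1421633_a_at -0.022, -0.023 and -0.020. Ptprz1 1427019_at was -0.024 with medians subtracted. With array weights Hapln1 1421633_a_at was -0.015 and Ptprz1 1427019_at -0.016. With the 3 arrays left out together, Vcan 1459767_x_at was 8.5e-04, Vcan 1433044_at 0.015, Hapln1 1426294_at -0.017, Hapln1 1421633_a_at -0.039, Ptprz1 1418690_at -0.015 and Ptprz1 1427019_at -0.020. With 1 array left out, changes ran from -0.092 to 0.013 for Acan, -0.027 to 0.027 for Vcan 1459767_x_at, -0.027 to 0.013 for Vcan 1433044_at, -0.017 to 0.043 for Hapln1 1426294_at, -0.024 to 0.0054 for Hapln1 1426295_at, -0.032 to 0.035 for Hapln1 1421633_a_at and -0.12 to 0.072 for Ptprz1 1427019_at. The counts of genes called in the 5 matrix lists were the same when the probe sets of a gene were averaged. Among the named genes past the threshold Mmp8, Nrgn and Nnat lost their calls in several settings, given with their values, and Srgn lost its call only with the 3 arrays left out together (adjusted p = 0.127). The causes were not tested.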

Other observations

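Several members were measured by probe sets that ordered the mice differently. For Ncan, 1434679_at had AxL 4 highest (11.61) and AxL 2 lowest (10.64), whereas 1444020_at had AxL 3 highest (10.94) and AxL 4 at 10.19. For Ptprz1, 1427019_at had AxL 2 lowest at 9.54 while the other 9 arrays lay between 9.90 and 10.30, and in 1452284_at the lowest was TPlp+AxL 5 (11.29). Both Tnc probe sets, by contrast, had AxL 4 as the highest array and TPlp+AxL 4 as the highest of its group. The oligonucleotide sequences behind these probe sets were not analysed here.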
